A study of Brassica napus with 9 samples.

Results

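The NADH-dependent glutamate synthase gene GLT1 was described over its copies in leaves of rapeseed (*Brassica napus*). The members were the gene models that the study's gene list pairs with the name GLT1, 3 of the 104592 identifiers in each library: BnaA03g12250D, whose identifier places it on chromosome A03, and BnaC03g15020D and BnaC03g15030D, whose consecutive identifiers place them side by side on chromosome C03. RNA-seq was run on leaves of the cultivar Zhongshuang 11, and each of the 3 groups had 3 biological replicates. The well-watered plants of CK were held at 80% of field capacity and sprayed with water. Plants of D were brought down to 30% of field capacity and sprayed with water. Plants of D + F were dried in the same way and sprayed with 100 mg/L of fullerol, a fullerene that carries hydroxyl groups and dissolves in water. A single cultivar and a single sampling day were used for all groups, and no identifier in the files is paired with a marker gene of leaf cells, so the tissue could not be checked against one. In whole leaves, fewer cells of a type and less RNA per cell cannot be told apart.

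In plants, glutamine synthetase fixes ammonium into glutamine, and glutamate synthase moves the amide group of that glutamine onto 2-oxoglutarate, which gives glutamate. The NADH-dependent enzyme encoded by GLT1 works beside a ferredoxin-dependent enzyme that serves mostly photorespiration in green leaves. In Arabidopsis, the NADH form is best known from roots and vascular tissue, where it takes part in assimilating and reassimilating ammonium. Glutamate made in this way is also the starting point of proline, a solute that many plants accumulate when water is short.

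The values were FPKM, the fragments on a gene scaled to its length and to the total of the library. Library totals solved from the digits of the values lay between 21939148 and 26042002 read pairs. The coding lengths solved in the same way were 6489 bases for BnaA03g12250D, 1998 bases for BnaC03g15020D and 3459 bases for BnaC03g15030D. Both C03 models together had 5457 bases, which was 84.1% of the length of the A03 model, and 0 other identifiers lay between them. All 3 passed the filter on low values, an FPKM above 1 in at least 3 libraries. Each rested on at least 468 read pairs in every library, up to 3622 for BnaA03g12250D in D + F 2, so counting error was small beside the spread between replicates. *B. napus* holds near-identical gene copies on its A and C subgenomes, and how reads matching several copies were counted is not given in the sources used here, so the level of each single copy is uncertain by the reads that it shares with the others.

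BnaA03g12250D, the A03 copy, had 4.998, 6.78 and 11.3 FPKM in CK 1 to CK 3. Its level was 16.9, 12.2 and 13.1 FPKM in D 1 to D 3, and 11.0, 21.4 and 23.9 FPKM in D + F 1 to D + F 3. All D libraries lay above all CK libraries, while D + F 1 fell just below CK 3. The means of CK, D and D + F were 7.68 ± 3.22, 14.1 ± 2.47 and 18.8 ± 6.83 FPKM, respectively (SD, n = 3 each), so that the order from low to high was CK, D and D + F. The neighbours D and D + F in this order overlapped.

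BnaC03g15020D, the shorter C03 model, had the highest FPKM of the copies in every library. It was measured at 10.7, 13.0 and 19.9 FPKM in the CK libraries. The D libraries had 56.1, 43.6 and 47.4 FPKM, and the D + F libraries 27.7, 45.1 and 50.3 FPKM. Both groups of dried plants lay wholly above CK, whereas D and D + F overlapped. Its means were 14.5 ± 4.80, 49.0 ± 6.43 and 41.0 ± 11.9 FPKM for CK, D and D + F, respectively (SD, n = 3 each), and the order from low to high was CK, D + F and D. Among the genes tested, this model stood above 67.4% to 80.1% of them in the CK libraries and above 92.3% to 94.1% of them in the D libraries.

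BnaC03g15030D, the longer C03 model, had 5.73, 6.28 and 10.3 FPKM in CK and 17.8, 17.7 and 10.2 FPKM in D. Its level in D + F was 11.6, 16.1 and 10.2 FPKM. The library D 3 stood apart from the other D libraries here and lay just below CK 3, as D + F 3 did, so that both groups of dried plants overlapped with CK. For CK, D and D + F, the means were 7.45 ± 2.51, 15.2 ± 4.35 and 12.6 ± 3.08 FPKM, respectively (SD, n = 3 each), again in the order CK, D + F and D with overlap of all neighbours. Within CK, replicate 3 was the highest library for each of the 3 copies.

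**Figure D1:**
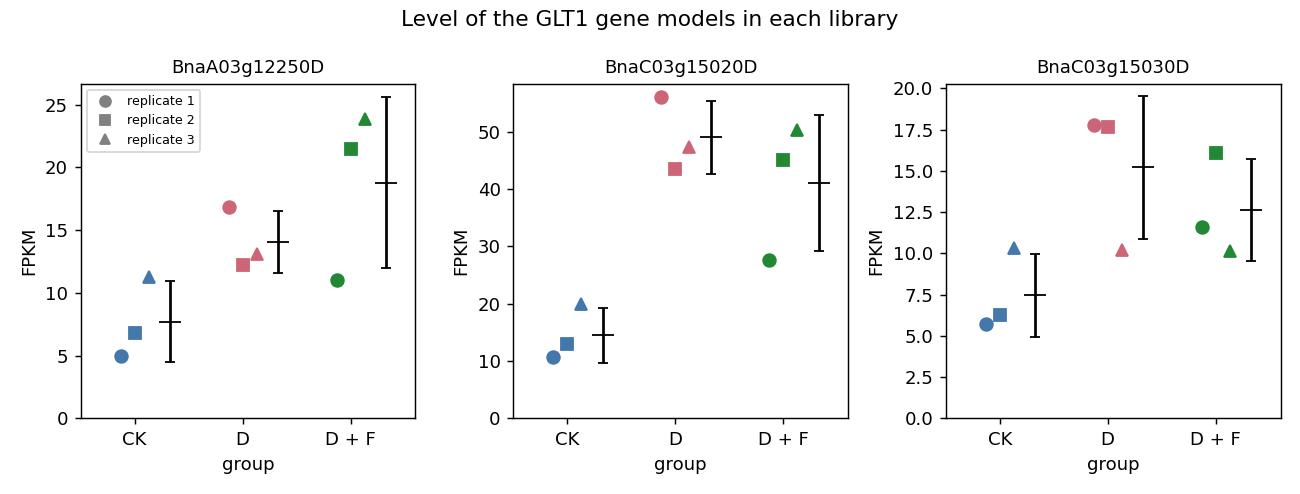
FPKM of each GLT1 gene model (vertical axis) in the 9 libraries, by group, with the mean and SD (n = 3) to the right of the points. BnaC03g15020D reached 43.6 to 56.1 FPKM in D against 10.7 to 19.9 in CK, while D 3 and D + F 3 were near 10.2 FPKM for BnaC03g15030D, inside the CK range.

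The comparison D vs. CK asked how the copies differed between dried and well-watered leaves. In D vs. CK, both C03 models were up-regulated and the A03 copy missed the threshold by a small margin. BnaC03g15020D rose 3.38-fold in mean FPKM, with a log2 fold change of 1.72 ± 0.23 (SE) and an adjusted p of 0.00232 in limma's test on log2(FPKM + 1). BnaC03g15030D rose 2.04-fold, with a log2 fold change of 0.94 ± 0.28 and an adjusted p of 0.0393. The mean of BnaA03g12250D was 1.83-fold that of CK, its log2 fold change was 0.85 ± 0.27 and its adjusted p was 0.0502. Thus 2 of 3 copies were up-regulated DEGs, where 12.3% of the 50626 genes tested were, and the D libraries lay wholly above CK for 2 of 3 copies, where 19.4% of genes did. The study's gene list was drawn from calls in these libraries, so these counts are not independent evidence of the direction. Of all genes, 6248 were up- and 9961 down-regulated DEGs, and 8259 and 8675 after median-of-ratios scaling.

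The call for BnaC03g15020D held under all 16 alternatives, with limma adjusted p from 0.00101 to 0.0138. That for BnaC03g15030D was lost without CK 1, CK 2, D 1 or D 2 (limma adjusted p of 0.0952, 0.121, 0.117 and 0.119), and BnaA03g12250D passed without CK 3 (limma adjusted p of 0.00784) and in 4 of the other alternatives, over a range from 0.00784 to 0.144.

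The comparison D + F vs. CK set dried leaves with fullerol against well-watered leaves. In D + F vs. CK, BnaC03g15020D was the up-regulated copy. Its mean was 2.82-fold that of CK, with a log2 fold change of 1.44 ± 0.29 (SE) and a limma adjusted p of 0.0183. The mean of the A03 copy was 2.45-fold that of CK, which gave a log2 fold change of 1.18 ± 0.35 with a limma adjusted p of 0.0579. For BnaC03g15030D the ratio of means was 1.69, the log2 fold change 0.70 ± 0.25 and the limma adjusted p 0.0989. In all, 1 of 3 copies was an up-regulated DEG against 8.9% of genes tested, and 1 of 3 had all D + F libraries above all CK libraries against 20.1% of genes. As the copies come from a list drawn from calls in these libraries, these counts too are not independent evidence.

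Single libraries decided some of these calls. BnaC03g15020D lost its call without CK 2, D + F 2 or D + F 3 (limma adjusted p of 0.0750, 0.0779 and 0.0667), BnaA03g12250D gained 1 without CK 3 or D + F 1 (0.0304 and 0.0258), and BnaC03g15030D gained 1 without CK 3 (0.0304). Over all alternatives the limma adjusted p ranged from 0.00578 to 0.0779 for BnaC03g15020D, from 0.0101 to 0.179 for BnaA03g12250D and from 0.0304 to 0.289 for BnaC03g15030D.

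The comparison D + F vs. D asked whether fullerol changed the level of the copies in dried leaves. In D + F vs. D, the copies did not move in the same direction by their means. The A03 copy was 1.34-fold higher in mean FPKM, and BnaC03g15020D and BnaC03g15030D had ratios of 0.837 and 0.830. The log2 fold changes were 0.34 for BnaA03g12250D (95% interval from -0.34 to 1.01), -0.29 for BnaC03g15020D (-0.85 to 0.27) and -0.24 for BnaC03g15030D (-0.84 to 0.37). None of the 3 passed limma's test, with adjusted p of 0.566, 0.556 and 0.659, and 0 of 3 had an unadjusted p under 0.05, with limma's voom on solved reads as well. Over all genes 1.15% were DEGs in this comparison, and for 0 of 3 copies the libraries of D + F lay wholly above D, as they did for 19.8% of genes, or wholly below, as for 4.99%. The median log2 fold change over all genes was 0.14 and became 0.01 after median-of-ratios scaling, under which the copies had 0.19, -0.44 and -0.38. With single libraries left out, the log2 fold change ran from 0.14 to 0.66 for BnaA03g12250D. It ran from -0.45 to -0.03 for BnaC03g15020D and from -0.48 to -0.10 for BnaC03g15030D. Without D + F 1, 1 of 3 copies had an unadjusted p under 0.05 in limma's test, and 0 were DEGs. The intervals from all libraries leave room for changes of either sign in each copy.

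**Figure D2:**
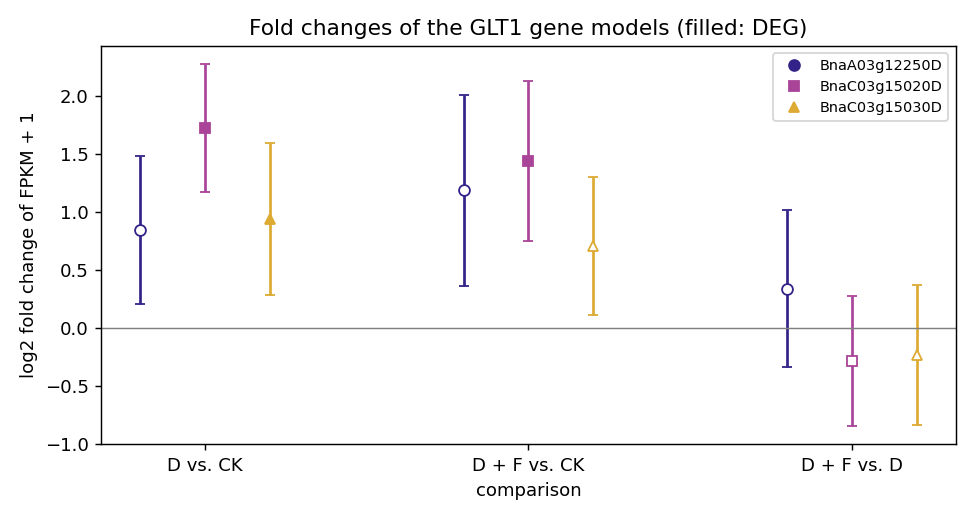
Log2 fold change of FPKM + 1 (vertical axis) of each GLT1 gene model in the 3 comparisons, with 95% intervals from limma, filled where the gene was a DEG. The intervals lay above 0 in both comparisons with CK, from 1.17 to 2.27 for BnaC03g15020D in D vs. CK, and spanned 0 for every copy in D + F vs. D.

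The share of the A03 copy was then compared within libraries, since a ratio of copies in 1 library does not depend on the scaling between libraries. Such a ratio can still depend on how FPKM followed gene length in each library, described below, as the A03 model is longer than either C03 model. That part was not tested. The A03 copy took a smaller share in D than in CK or D + F. The FPKM of BnaA03g12250D divided by the mean FPKM of both C03 models was 0.610, 0.702 and 0.745 in the CK libraries. It was 0.457, 0.399 and 0.455 in the D libraries and 0.561, 0.701 and 0.790 with fullerol. The D libraries were thus below all others, and CK and D + F overlapped. On the log2 scale the ratio of CK, D and D + F averaged -0.55 ± 0.15, -1.20 ± 0.11 and -0.56 ± 0.25, respectively (SD, n = 3 each). An exact permutation test over the 3 groups (all arrangements of the 9 libraries, two-sided) gave p = 0.0321, or 0.0482 after Benjamini-Hochberg adjustment over the 3 ratio and level results. D was lower than CK by 0.65 and D + F higher than D by 0.64, both with exact permutation p = 0.1, the smallest that 3 libraries against 3 allow, while D + F and CK differed by -0.01 (exact permutation p = 0.9). Without D 1, D 2 or D 3 the exact permutation p over the groups was 0.0536, 0.0679 and 0.0536, respectively.

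The ratio was also divided by C03 model, a choice made after the values had been seen and given without a test. The FPKM of BnaA03g12250D over that of BnaC03g15020D was 0.469, 0.520 and 0.566 in the CK libraries, then 0.300, 0.280 and 0.277 under drought, and 0.398, 0.475 and 0.475 under drought with fullerol. The D libraries were all below the rest, and D + F 1 was the only D + F library below the CK range. Against BnaC03g15030D, the same ratio ran from 0.872 to 1.09 for CK, from 0.691 to 1.29 for D and from 0.950 to 2.35 for D + F, and all groups overlapped.

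The level of the C03 locus, taken as the mean FPKM of both models, was 8.19, 9.65 and 15.1 in the CK libraries. Those of D had 36.9, 30.6 and 28.8, and those of D + F 19.6, 30.6 and 30.2. Both groups of dried plants lay above CK in every library and overlapped with each other. On the log2 scale it was 1.59 higher in D and 1.31 higher in D + F than in CK (exact permutation p = 0.1 each), and D + F was 0.28 below D (exact permutation p = 0.4). Over the 3 groups the exact permutation test gave p = 0.0143, or 0.0429 after adjustment. Both models come from the study's list, drawn from calls in these libraries, so this p is not independent evidence of a difference. Adding the A03 copy to this C03 mean gave 18.7 ± 6.86, 46.2 ± 6.61 and 45.6 ± 13.0 FPKM (SD, n = 3 each) under CK, D and D + F. Of this sum the A03 copy made up 40.6% ± 2.46, 30.4% ± 1.62 and 40.4% ± 4.14. The sum counts both C03 models as 1 gene, and whether they are parts of 1 gene could not be settled here. Counted in this way, it had nearly the same mean in D and D + F, with different shares from the copies. By library the sum was 53.8, 42.8 and 41.9 FPKM in D 1 to D 3. In D + F 1 to D + F 3 it was 30.7, 52.0 and 54.1 FPKM, so the mean of D + F depended on the low D + F 1.

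**Figure D3:**
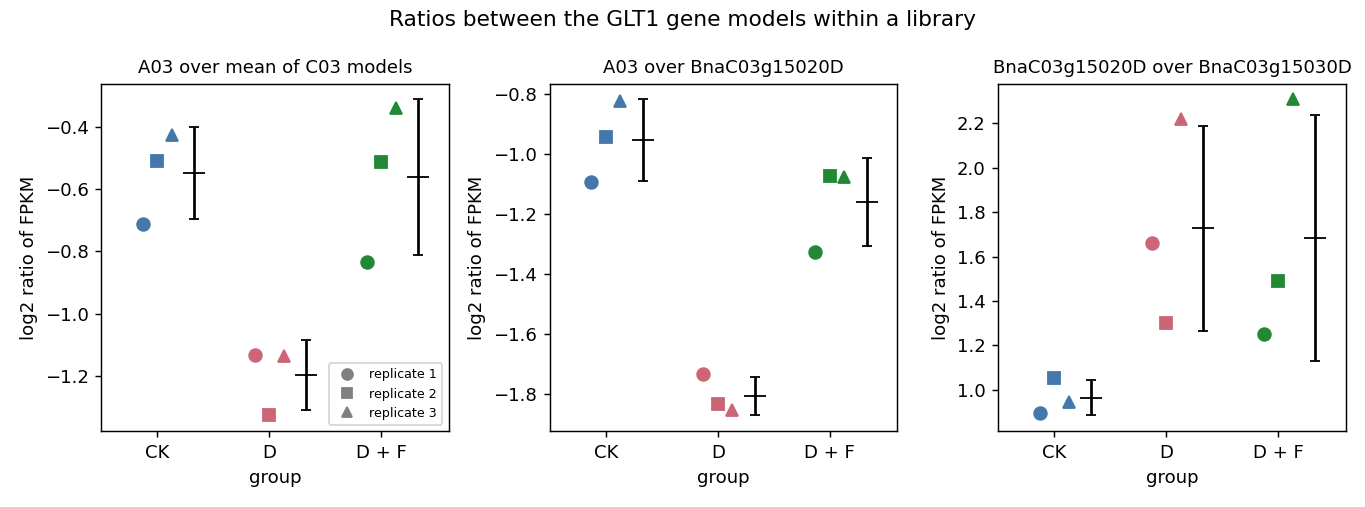
Log2 ratio of FPKM within a library (vertical axes) by group, with mean and SD (n = 3), for the A03 copy over the mean of the C03 models, the A03 copy over BnaC03g15020D, and BnaC03g15020D over BnaC03g15030D. The first averaged -1.20 under D against -0.55 for CK and -0.56 for D + F, and the last was between 0.90 and 1.05 in CK and reached 2.22 in D 3 and 2.31 in D + F 3.

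The neighbouring C03 models did not keep 1 ratio. BnaC03g15020D over BnaC03g15030D was 1.86, 2.07 and 1.93 in the CK libraries, whereas those of D had 3.16, 2.46 and 4.66 and those of D + F 2.38, 2.81 and 4.95. Every library of dried plants was above every CK library, and D and D + F overlapped. The log2 means of CK, D and D + F were 0.96 ± 0.08, 1.73 ± 0.46 and 1.68 ± 0.55, respectively (SD, n = 3 each), and the exact permutation test over the groups gave p = 0.118, which did not pass the threshold before or after adjustment. With D 3 and D + F 3 left out together, a choice made after the values had been seen, the exact permutation test gave p = 0.0476.

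The libraries also differed in how FPKM followed gene length. For each library, a line was fitted across genes to the deviation of log2(FPKM + 1) from its mean over the 9 libraries, against the log2 of coding length. The slope per doubling of length was 0.0650, 0.0631 and 0.0652 in the CK libraries. It was -0.0072, -0.0033 and -0.0561 for D 1 to D 3, and 0.0083, -0.0251 and -0.1098 for D + F 1 to D + F 3. D + F 3 and D 3 had the lowest slopes and the highest ratios of the C03 models, and the 3 CK libraries had the highest slopes and the lowest ratios. The part of the length slope in this ratio, or in that of the A03 copy to the C03 models, was not tested. The slope separates CK from the dried plants, as the ratio of the C03 models does, so slope and drying cannot be told apart for that ratio. Between D and D + F the slopes overlapped, whereas the ratio of the A03 copy to the C03 models was lower in D than in CK and D + F.

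**Figure D4:**
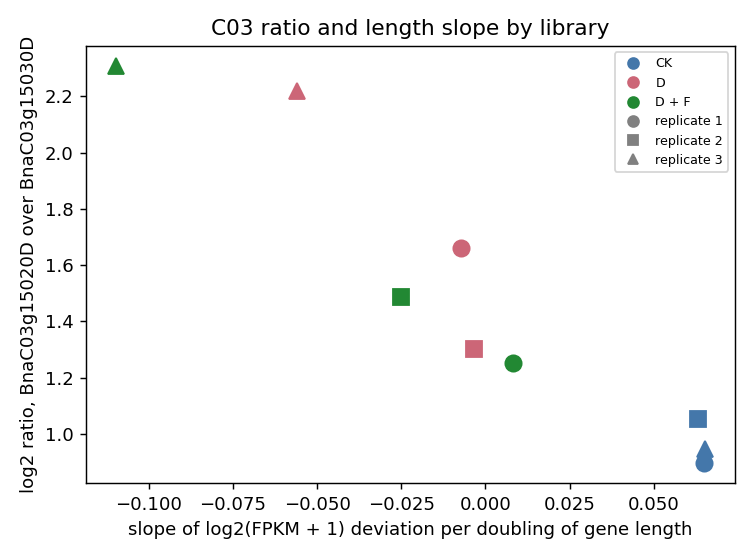
Log2 ratio of BnaC03g15020D to BnaC03g15030D (vertical axis) against the slope of log2(FPKM + 1) deviation per doubling of gene length (horizontal axis), 1 point per library. D + F 3 and D 3, at slopes of -0.1098 and -0.0561, had ratios of 2.31 and 2.22, and the CK libraries near a slope of 0.065 had ratios from 0.90 to 1.05.

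Within the groups, the A03 copy and BnaC03g15020D followed each other from library to library. After the group means of log2(FPKM + 1) were taken away, BnaA03g12250D deviated by -0.47, -0.09 and 0.56 in the CK libraries, by 0.26, -0.18 and -0.08 for D 1 to D 3, and by -0.65, 0.25 and 0.40 for D + F 1 to D + F 3. The deviations of BnaC03g15020D in the same order were -0.37, -0.10 and 0.47, then 0.20, -0.16 and -0.04, then -0.51, 0.18 and 0.33. Over the 9 libraries these deviations had a Pearson r of 0.998, and among the other 50625 genes tested each of the pair was the gene with rank 1 for the other, also after median-of-ratios scaling (r = 0.999, rank 1). Both are measured in the same libraries at the same depth and, as A and C copies, may share reads, whose part in the likeness was not tested. BnaC03g15030D followed them less, with r = 0.476 to BnaA03g12250D and 0.453 to BnaC03g15020D, at ranks 20153 and 21412 of 50625 seen from those copies. Its largest deviation was -0.49 in D 3, where the other copies stood at -0.08 and -0.04.

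**Figure D5:**
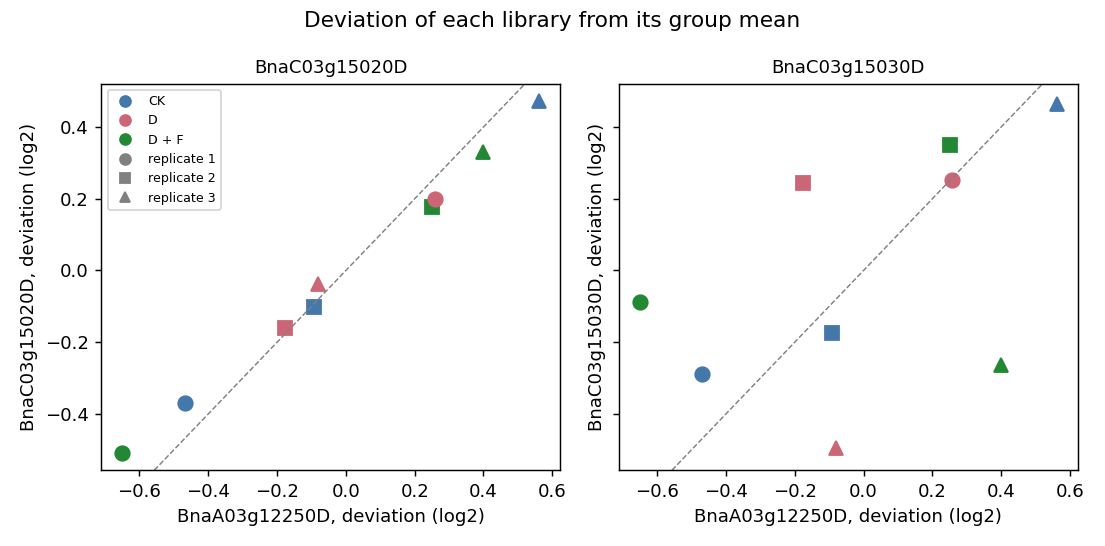
Deviation of each library from its group mean of log2(FPKM + 1), for BnaA03g12250D (horizontal axes) against BnaC03g15020D (left) and BnaC03g15030D (right), with the line of equal deviations dashed. The left points lie close to a line (r = 0.998), and on the right D 3 stands at -0.49 for BnaC03g15030D against -0.08 for BnaA03g12250D.

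With the group differences kept, Pearson r of log2(FPKM + 1) over the 9 libraries was 0.895 between BnaA03g12250D and BnaC03g15020D, 0.830 between the C03 models and 0.720 between BnaA03g12250D and BnaC03g15030D. Of the 116 other tested identifiers that the study's list names, those nearest to BnaC03g15020D were SPS2 BnaA06g27590D (a sucrose phosphate synthase, r = 0.981), P5CDH BnaC03g74750D (the dehydrogenase that turns pyrroline-5-carboxylate back into glutamate, r = 0.974) and RFS6 BnaA10g15160D (a raffinose synthase gene, r = 0.974). BnaC03g15030D was nearest to GLN1-3 BnaA05g22420D, a cytosolic glutamine synthetase (r = 0.923), P5CDH BnaC03g74750D (r = 0.863) and TSB1 BnaA08g25220D, a tryptophan synthase subunit (r = 0.857). The named genes nearest to BnaA03g12250D were RFS6 BnaA02g04780D (r = 0.942), HDH BnaCnng13210D, a histidinol dehydrogenase (r = 0.925), and GLN1-3 BnaA05g22420D (r = 0.890). Thus GLN1-3 BnaA05g22420D was among the 3 nearest named genes of both BnaA03g12250D and BnaC03g15030D. Among all genes it had rank 1201 for BnaA03g12250D and rank 28 for BnaC03g15030D. These are descriptions over 9 libraries that differ by group, and ranks of the named genes among all genes went from 28 to 1201. By the same measure BnaC03g15020D had rank 1092 seen from BnaA03g12250D, which had rank 2111 seen from BnaC03g15020D.

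The genes around GLT1 in glutamate and proline metabolism were taken as the 22 identifiers that the study's list names GLN1-1, GLN1-3, GLN1-4, GSH3, P5CS1, P5CS2, P5CDH, PRODH1, PRODH2 and CICDH, again drawn from calls in these libraries. In D vs. CK, 9 of the 20 tested were called up-regulated and 11 were called down-regulated, where 12.3% and 19.7% of all genes tested were, and 32.0% were DEGs in either direction. The median log2 fold change was -1.66 against -0.10 over all genes. For D + F vs. CK, 7 were up- and 11 down-regulated, against 8.9% and 8.16% of all genes and 17.1% in either direction, with a median of -1.37 against 0.04. Since members went both ways, these medians moved with the filter, to 0.04 and -0.45 over the 16 with a mean FPKM of at least 5, and to -0.77 and -0.97 without a filter. The nitrogen metabolism list of the study, with the GLT1 copies left out, held 23 identifiers, 9 of them also in the first list. This list too was drawn from these libraries, so its counts are not independent evidence. It gave 4 up- and 17 down-regulated DEGs of 22 tested between D and CK, and 2 and 16 between D + F and CK. The few up-regulated DEGs depended on single libraries: the 4 became 1 without CK 2, D 1 or D 2 and 2 without D 3, and the 2 became 0 without CK 2, D + F 2 or D + F 3 and 1 without CK 1 or CK 3.

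The partner enzymes of glutamate synthase split by gene name. In D vs. CK, 12.3% of all genes tested were up- and 19.7% down-regulated DEGs. The partner genes come from the list drawn from calls in these libraries, so their counts are not independent evidence. GLN1-4 BnaC02g06690D, a cytosolic glutamine synthetase, had 755.1 ± 279 FPKM under CK, fell to 15.8 ± 5.81 under D and measured 172.5 ± 40.3 with fullerol (SD, n = 3 each), and all 4 tested GLN1-4 identifiers were down-regulated in D vs. CK. GLN1-1 BnaC04g30250D, of the same family, went from 280.1 ± 51.6 to 8.51 ± 3.38 and 59.0 ± 24.7 FPKM, with both GLN1-1 identifiers down-regulated. GLN1-3 BnaA05g22420D rose in D vs. CK, from 17.0 ± 4.41 to 35.5 ± 7.47 FPKM, and had 36.7 ± 6.93 in D + F. Of the 2 GLN1-3 identifiers in the list, only this 1 passed the filter and was tested. The paper names GLN1-3 among the glutamine synthetase genes lowered by drought. Its text gives the gene name and no identifier there, so it may mean the identifier that was not tested here. CICDH BnaC06g27300D, a cytosolic isocitrate dehydrogenase that makes 2-oxoglutarate, fell from 33.1 ± 6.59 to 16.6 ± 1.497 FPKM, with 12.2 ± 1.49 under D + F. GSH3 BnaC01g40390D, named for a glutamate dehydrogenase, fell from 8.05 ± 0.832 FPKM in CK to at most 0.0683 FPKM in any D library, and had 0.574 ± 0.208 in D + F.

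Downstream of glutamate, the proline synthesis genes rose and the gene of the first breakdown step fell in D vs. CK. These genes are of the same list, so the counts by name are again not independent evidence, beside 12.3% up- and 19.7% down-regulated of all genes. P5CS1 BnaC04g05620D, whose product opens the route from glutamate to proline, rose from 4.97 ± 1.21 to 477.6 ± 71.6 FPKM and had 269.4 ± 53.4 with fullerol (SD, n = 3 each). P5CS2 BnaC08g26550D, which encodes the same step, rose from 11.4 ± 1.91 to 36.2 ± 7.37 FPKM and was at 16.4 ± 4.91 in D + F, and all 4 P5CS1 and both P5CS2 identifiers tested were up-regulated in D vs. CK. P5CDH BnaC03g74750D, of proline breakdown, rose as well, from 19.2 ± 7.96 to 86.6 ± 5.88 FPKM, with 67.4 ± 5.75 in D + F. PRODH1 BnaA06g39660D, the proline dehydrogenase that opens the breakdown, fell from 10.9 ± 3.29 to 1.02 ± 1.04 FPKM and had 3.16 ± 1.66 in D + F, with all 3 PRODH1 identifiers down-regulated. PRODH2 BnaAnng37880D was too low to be tested, at most 0.762 FPKM in CK and listed at 0 in every D library.

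In D + F vs. D, 6 of the 20 tested genes of the glutamate and proline list were up-regulated DEGs, all of them GLN1-1 or GLN1-4 identifiers, and 2 down-regulated, 1 each of P5CS1 and P5CS2. The backgrounds over all genes were 0.808% and 0.338%, and the median of the list was 0.17 against 0.14 (-0.15 over those with a mean FPKM of 5 or more). The list was drawn from calls in these libraries, so these counts are not independent evidence. The count of 8 DEGs became 0 without D 1, D + F 2 or D + F 3, 1 without D 2 and 4 without D 3. GLN1-4 BnaC02g06690D had a log2 fold change of 3.41 ± 0.31 (SE, limma adjusted p = 0.0186), and GLN1-1 BnaC04g30250D 2.66 ± 0.37 (limma adjusted p = 0.0337). The copies of GLT1 were thus not among the genes of glutamate metabolism called between D + F and D, though whether they differed from GLN1-1 and GLN1-4 in their change was not tested.

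The gene models next to the loci were not called in any comparison with all libraries. Of the 5 identifiers before and the 5 after each locus, 20 in all, 7 passed the filter on low values, and 0 of the 7 were DEGs by limma's test, where 32.0%, 17.1% and 1.15% of all genes were DEGs between D and CK, D + F and CK, and D + F and D. With single libraries left out, 1 of 7 was called without CK 1 between D and CK, and 1 of 7 without CK 3 between D + F and CK. At an unadjusted p under 0.05 there was 1, between D + F and CK, and 0 in the other comparisons. Limma's voom on solved reads gave 0 DEGs in each comparison, with 2 at an unadjusted p under 0.05 between D and CK and 0 in the others. Their median log2 fold change in D vs. CK was -0.29, against 0.94 for the 3 GLT1 copies and -0.10 for all genes. The copies come from a list drawn from calls in these libraries and the neighbours were taken by position, so this contrast is not independent evidence.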

How the data were processed

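Leaf RNA-seq libraries of CK, D and D + F were used, 3 per group. Per the paper, the authors filtered the reads, aligned the pairs to the BRAD *B. napus* genome with TopHat (2.0.12) on Bowtie (2.2.3), counted reads with HTSeq (0.6.1) and deposited FPKM values. The submitters' processing notes name Bowtie 0.12.2 and a mouse build instead, which was not resolved, so no coordinates are given. The handling of strand and of reads with several matches is not given in the sources used here. Whole reads, lengths and totals were solved from the digits of the FPKM for 76337 of 76352 genes above 0, and 99.98% of values above 0 came out whole within a relative tolerance of 1e-06. Of the lengths tested, 96.6% were multiples of 3, hence coding length.

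Genes with FPKM above 1 in at least 3 of 9 libraries (50626) were fitted on log2(FPKM + 1), pair by pair on 6 libraries, with limma 3.58.1 (R 4.3.3), empirical Bayes and a mean-variance trend. DEGs had a Benjamini-Hochberg adjusted p under 0.05. The pseudocount of 1 understates changes of low genes. Ratios were compared by exact permutation of libraries, two-sided. The scripts were tested on simulated data. Tables and plots came from Python 3.11.15 (pandas 2.3.3, numpy 2.4.6, scipy 1.17.1, matplotlib 3.10.9). The members and lists were chosen with earlier results of these data known. Named genes were the 3 copies, the identifier with the highest mean FPKM for each gene name of the glutamate and proline list, and the 3 named identifiers most like each copy. Alternatives were a pseudocount of 0.1, no filter, a mean FPKM of at least 5, median-of-ratios and quantile scaling, all 9 libraries in 1 fit, a replicate block, no trend, voom on the solved reads, a 2-fold minimum, each library left out in turn, and, for ratios, a pseudocount of 1 and C03 levels from summed reads. No sequence is shown, and 0 of the identifiers occur in the RefSeq table used here. Limma's p-values set a difference against the spread between the libraries of a group, moderated across genes. The permutation p-values are the share of arrangements of the libraries with a difference at least as large.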

Additional observations from a re-analysis of the deposited data

How the results depend on the processing

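Directions of all log2 fold changes of the copies were kept under every alternative run. For BnaA03g12250D in D vs. CK, the call was gained with a mean FPKM of 5 as the filter (0.85), median-of-ratios scaling (0.95), quantile normalization (0.98) and voom (0.94), and leaving out single libraries gave 0.61 to 1.13. For BnaC03g15030D in D vs. CK, it was lost without a filter, with the replicate block and with a minimum of 2-fold (0.94 in each), and single libraries left out gave 0.80 to 1.19. In D + F vs. CK, BnaA03g12250D gained a call with median-of-ratios scaling (1.15), quantile normalization (1.18), 1 fit on all 9 libraries and the replicate block (1.18 in both), and ranged from 0.95 to 1.51 without single libraries. BnaC03g15020D lost its call without a filter (1.44) and ranged from 1.25 to 1.69, and BnaC03g15030D ranged from 0.53 to 0.94. Same-numbered libraries deviated together with correlations from -0.291 to 0.306, so the numbers were not taken as pairs, and with the replicate block the adjusted p was 0.0954 for BnaC03g15030D in D vs. CK and 0.0101 for BnaA03g12250D in D + F vs. CK. The block changed no other call of the copies. The 8 DEGs of the glutamate and proline list in D + F vs. D became 0 without a filter, with the replicate block and with D 3 and D + F 3 left out together, and 0 to 8 without single libraries. Over all genes, the 580 DEGs of D + F vs. D became 22 without a filter and 1 with the replicate block, 0 to 576 without single libraries, and 322 with a mean FPKM of 5. Its split was 409 up and 171 down, and 282 and 222 after median-of-ratios scaling. Those of D vs. CK became 8151 and of D + F vs. CK 5048 with a minimum of 2-fold, and lay between 10006 and 17377 and between 3125 and 9591, respectively, without single libraries. Quantile normalization moved the median over all genes from -0.10 to 0.01 in D vs. CK.

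The p of the A03 to C03 ratio ranged from 0.0179 to 0.0679 without single libraries, and its difference between D + F and CK, near 0, turned from -0.0126 to 0.0724 with C03 levels from summed reads and lay between -0.12 and 0.12 without single libraries. The difference of the C03 models' ratio between D + F and D ranged from -0.36 to 0.20 and, for the A03 copy to BnaC03g15030D between D and CK, from -0.32 to 0.13. With D 3 and D + F 3 left out together, the p of the C03 models' ratio was 0.0476. The causes were not tested. For a pair of groups with 3 libraries each, the exact permutation p cannot go below 0.1. For the nitrogen metabolism list, the 4 up-regulated DEGs of D vs. CK became 1 with the replicate block, and 2 with a pseudocount of 0.1, without a filter, with median-of-ratios scaling and without trend, and the 2 of D + F vs. CK became 4 with the replicate block and 1 without a filter.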
